A study of Mus musculus with 4 samples.

Results

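The expression of 10 receptor genes that direct monocytic or granulocytic output was read in 4 sorted cell populations of mouse bone marrow. The members were Csf1r, Csf2ra, Csf2rb, Csf2rb2, Csf3r, Kit, Flt3, Il6ra, Ifngr1 and Tgfbr2, named as a list of receptors for colony-stimulating factors and other growth factors. All 10 were found by symbol in the annotation of the array, where 17 probe sets belong to 1 of them alone, out of 12393 genes and 20380 probe sets with 1 gene in the whole series. A further probe set is annotated to both Csf2rb2 and Csf2rb.

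The series addresses how Gfi1, a transcriptional repressor, acts on the choice between monocytes and granulocytes. Each population was measured on 1 array, from untreated mice of 8 weeks on a C57BL/6 background of at least 10 backcross generations. The first was CD11b+, Gr1-low cells of GFP:Gfi1 KI/KI mice, in which green fluorescent protein (GFP) stands in both copies of Gfi1, so that the label calls them knock-out. The other populations came from heterozygous GFP:Gfi1 KI/WT mice, which keep a working copy of Gfi1 and report its activity by GFP. They were CD11b+, Gr1-high granulocytes, CD11b+, Gr1-low, GFP-high cells, and CD11b+, Gr1-low, GFP-low cells. CD11b is a surface integrin of myeloid cells and Gr1 an antigen that is brightest on granulocytes. Every array therefore carries at least 1 knock-in allele, and no wild-type array was analysed here. The labels of the KI/KI cells and of the granulocytes name no GFP gate. The number of mice behind each array is not given in the sources used here.

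Values are the deposited log2 levels of probe sets. Over all probe sets the array medians lay between 5.91 and 6.01. The 40th percentile of all values, 5.18, was used as a floor below which a level was not read, and a difference with 1 side below it is a bound, written "at least". The 3' minus 5' log2 difference of the Actb control probe sets, a sign of RNA integrity, was 0.28 in KI/KI cells and ran between 0.08 and 0.16 on the other arrays. The KI/KI array also stood apart in sex-linked transcripts, with Xist at log2 5.80 against 9.56 to 10.93 on the other arrays and the Y-linked Eif2s3y above the floor there alone. The part of this in the differences below was not tested. Gfi1 itself read 5.18 in KI/KI cells, just below the floor, 7.31 in granulocytes, 10.31 in GFP-high cells and 3.74 in GFP-low cells. The labels were checked against marker lists. The 8 monocyte markers, all above the floor on every array, summed to 41752 linear units in KI/KI cells, 2205 in granulocytes, 1521 in GFP-high cells and 43800 in GFP-low cells. GFP-high cells are labelled monocytes, but their monocyte markers read as low as those of granulocytes, so they are called GFP-high Gr1-low cells here. Neutrophil markers (8 on the array, all above the floor on every array) summed to 19036 in KI/KI cells, 124438 in granulocytes, 103320 in GFP-high cells and 48495 in GFP-low cells. The 5 markers of granulocyte-monocyte progenitors, likewise all above the floor, summed to 11811 in KI/KI cells, 1664 in granulocytes, 45029 in GFP-high cells and 2018 in GFP-low cells. In sorted bulk samples, fewer cells of a type and less RNA per cell cannot be told apart.

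**Figure D1:**
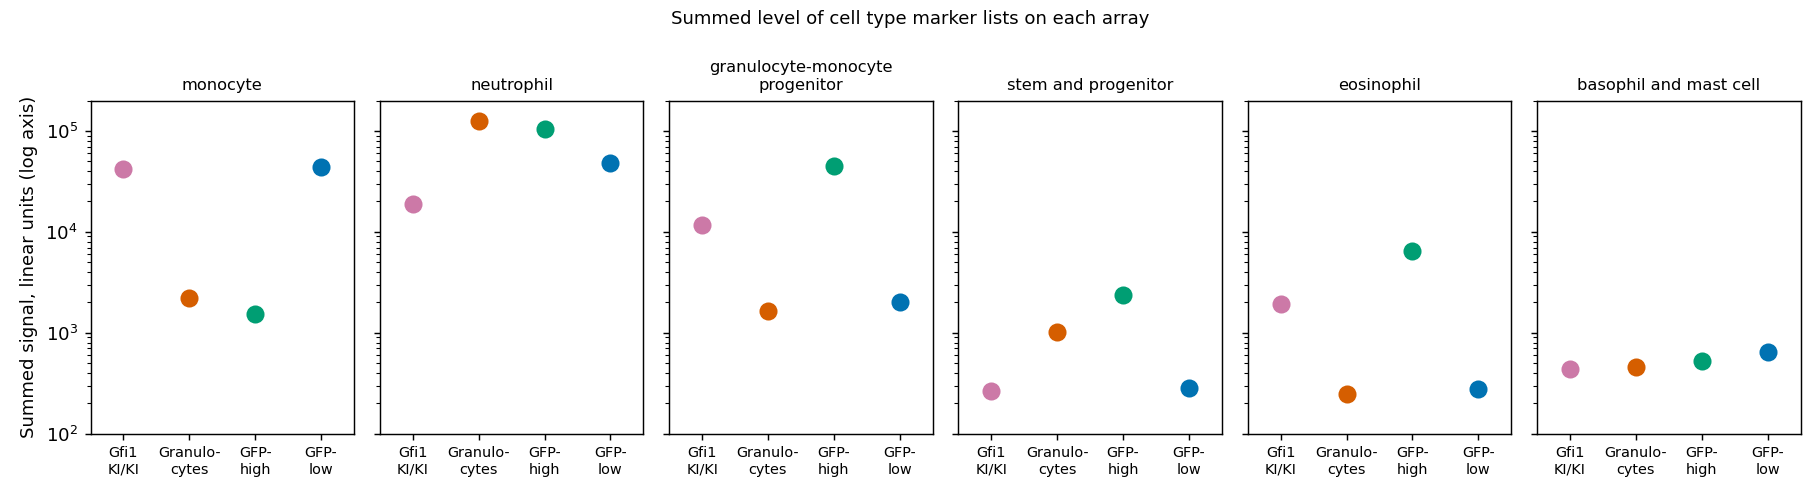
Summed linear signal (vertical log axis) of 6 cell type marker lists on each of the 4 arrays (horizontal axis), 1 point for each array and no replicates. The monocyte sums of KI/KI (41752) and GFP-low cells (43800) lie far above those of granulocytes (2205) and GFP-high cells (1521). The sum of granulocyte-monocyte progenitor markers is highest in GFP-high cells (45029).

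The receptors fall into 3 structural kinds. Csf1r, Kit and Flt3 are receptor tyrosine kinases, which bind macrophage colony-stimulating factor (M-CSF), stem cell factor and Flt3 ligand and signal through their own kinase domains. Csf2ra, Csf2rb, Csf2rb2, Csf3r, Il6ra and Ifngr1 are cytokine receptor chains that lack a kinase and signal through Janus kinases (JAK) and STAT transcription factors, most of them together with a partner chain. Tgfbr2 is the serine/threonine kinase that binds transforming growth factor beta and acts on Smad proteins through a partner receptor chain. In bone marrow, M-CSF is known to drive monocytes and granulocyte colony-stimulating factor (G-CSF, the ligand of Csf3r) neutrophils, while Kit and Flt3 mark immature cells. Transcription factor PU.1, encoded by Spi1, is known to act on several of these receptor genes.

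RefSeq promoters of mouse assembly GRCm38.p6 were at hand for 8 of the 10 members and were searched on both strands over 250 bases before and 50 after the start of transcription. The core motif of PU.1, GAGGAA, was present in 6 of the 8 members (Csf2ra, Csf2rb2, Csf3r, Kit, Il6ra and Tgfbr2), beside 28.3% of 32851 promoters of the same length in the table. The C/EBP motif TTGCNNAA was found in 1 member, Tgfbr2, beside 10.8% of all promoters. The Runx core TGTGGT (16.8% of all promoters) and the Gfi1 motif AAATCAC (3.20%) were in 0 of the 8. These are matches of letters and not shown to be bound. The 250 bases before the start are shown for 4 of the 6 members with the PU.1 core, so the display favours that motif. They are Csf3r, highest in granulocytes, Kit, highest in GFP-high cells, and Il6ra and Tgfbr2, both lowest in GFP-high cells. The promoters of Flt3 and of Ifngr1, which was lowest in granulocytes, held no match of the core and are not shown. Capitals mark the PU.1 core on either strand.
Csf3r, chr4:126024409-126024658, plus strand: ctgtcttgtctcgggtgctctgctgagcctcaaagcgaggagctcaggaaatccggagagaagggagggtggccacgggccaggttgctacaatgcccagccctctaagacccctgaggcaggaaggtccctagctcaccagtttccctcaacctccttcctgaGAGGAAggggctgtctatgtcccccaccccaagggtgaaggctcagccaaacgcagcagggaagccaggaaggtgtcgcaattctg
Kit, chr5:75574737-75574986, plus strand: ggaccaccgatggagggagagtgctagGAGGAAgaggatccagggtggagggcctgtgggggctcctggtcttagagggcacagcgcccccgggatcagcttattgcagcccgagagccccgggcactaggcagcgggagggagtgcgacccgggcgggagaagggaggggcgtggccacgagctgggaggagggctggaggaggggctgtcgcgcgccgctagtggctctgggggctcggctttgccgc
Il6ra, chr3:89913197-89913446, minus strand: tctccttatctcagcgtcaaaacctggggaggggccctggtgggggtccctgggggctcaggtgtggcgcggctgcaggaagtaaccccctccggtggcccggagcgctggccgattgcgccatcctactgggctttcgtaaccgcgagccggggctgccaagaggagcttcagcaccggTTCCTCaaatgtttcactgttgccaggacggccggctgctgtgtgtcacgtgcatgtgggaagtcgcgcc
Tgfbr2, chr9:116175364-116175613, minus strand: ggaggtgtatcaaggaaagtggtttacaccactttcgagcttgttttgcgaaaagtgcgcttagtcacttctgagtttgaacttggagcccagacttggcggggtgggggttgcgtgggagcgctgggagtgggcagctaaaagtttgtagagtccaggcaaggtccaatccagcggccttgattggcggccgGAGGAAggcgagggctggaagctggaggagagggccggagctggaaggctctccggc
In the Csf3r sequence the core begins at position -86 from the start, in Kit at -223, in Il6ra at -70 on the opposite strand and in Tgfbr2 at -57.

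The receptors for lineage-directing factors had unlike profiles. Csf1r, the M-CSF receptor of monocytes and macrophages, read log2 12.62 in KI/KI cells, 10.99 in granulocytes, 8.86 in GFP-high cells and 12.90 in GFP-low cells. It was thus near its top in KI/KI and GFP-low cells, lowest in GFP-high cells and in between in granulocytes. Its 3 probe sets gave the same order of the 4 arrays. Csf3r, the G-CSF receptor of neutrophils, read 10.19 in KI/KI cells, 12.70 in granulocytes, 10.19 in GFP-high cells and 10.36 in GFP-low cells. Granulocytes stood alone above the other arrays, which lay within 0.17 of each other. The change in Csf1r minus that in Csf3r was -4.25 (log2) for granulocytes minus GFP-low cells and -3.87 for GFP-high minus GFP-low cells. In the first it came from both genes, in the second from Csf1r, since Csf3r differed by -0.17.

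The receptor for granulocyte-macrophage colony-stimulating factor (GM-CSF) is made of the alpha chain Csf2ra and a shared beta chain. Csf2ra read 11.11 in KI/KI cells, 11.46 in granulocytes, 10.60 in GFP-high cells and 11.25 in GFP-low cells, a span of 0.86. Its dimmer probe set read 7.14, 8.05, 6.47 and 7.58 on the same arrays, with the same order and a wider span, 1.59 between granulocytes and GFP-high cells. Csf2rb, the beta chain shared by the receptors for GM-CSF, interleukin-3 and interleukin-5, read 9.61 in KI/KI cells, 10.02 in granulocytes, 9.53 in GFP-high cells and 9.05 in GFP-low cells. Csf2rb2, the mouse beta chain specific to interleukin-3, read 9.21 in KI/KI cells, 9.03 in granulocytes, 8.11 in GFP-high cells and 8.59 in GFP-low cells. Both beta chains were therefore lower in GFP-low than in KI/KI cells, but GFP-high cells lay between these for Csf2rb and below both for Csf2rb2. The genes are closely similar neighbours on chromosome 15, with 0 protein-coding genes between them, so probes of one may also bind the RNA of the other. The probe set annotated to both read 9.14 in KI/KI cells, 9.77 in granulocytes, 8.95 in GFP-high cells and 8.88 in GFP-low cells, in the order of Csf2rb.

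The receptors of immature cells did not go together. Kit, the stem cell factor receptor of progenitors and mast cells, was below the floor in KI/KI cells (4.42), read 6.51 in granulocytes and 8.11 in GFP-high cells, and was below the floor in GFP-low cells (3.96). It was thus read on 2 of the 4 arrays, with GFP-high cells above granulocytes, and its other probe set gave 5.93 in granulocytes and 6.78 in GFP-high cells. Flt3, the receptor of early lymphoid and dendritic progenitors, read 7.81 in KI/KI cells, 7.83 in granulocytes, 7.50 in GFP-high cells and 8.03 in GFP-low cells. Its span of 0.53 was the smallest of the 10 members. Stem and progenitor markers (6 on the array) summed to 263 linear units in KI/KI cells, 1028 in granulocytes, 2343 in GFP-high cells and 284 in GFP-low cells. That sum was mostly Prom1, which read 9.52 in granulocytes and 11.06 in GFP-high cells, while Cd34, a defining marker of the list, was below the floor in both, and 3 of the 6 markers were above it on each of these arrays. Markers of basophils and mast cells, which also carry Kit, summed to 441, 455, 523 and 646 in KI/KI cells, granulocytes, GFP-high cells and GFP-low cells. The part of these cells in the Kit level was not tested. Eosinophil markers (4 on the array) were highest where Kit was, with sums of 1923 in KI/KI cells, 248 in granulocytes, 6460 in GFP-high cells and 276 in GFP-low cells, and their part in the Kit level was not tested.

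The receptors for inflammatory and inhibitory cytokines were lower in GFP-high than in GFP-low cells. Il6ra, the ligand-binding chain of the interleukin-6 receptor, read 9.68 in KI/KI cells, 9.02 in granulocytes, 7.33 in GFP-high cells and 10.22 in GFP-low cells. Its order of arrays was that of Csf1r. Ifngr1, the ligand-binding chain for interferon gamma, read 10.43 in KI/KI cells, 8.96 in granulocytes, 9.26 in GFP-high cells and 10.40 in GFP-low cells. KI/KI and GFP-low cells were alike and stood above the other populations. Tgfbr2 read 9.31 in KI/KI cells, 9.67 in granulocytes, 7.91 in GFP-high cells and 9.36 in GFP-low cells, so that by this probe set GFP-high cells were apart from the other arrays. Of its other probe sets, 1 read 6.53, 7.63, 6.15 and 6.63 on the same arrays and 1 was below the floor on every array. The former had GFP-high cells lowest too, but set granulocytes apart from the other arrays.

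**Figure D2:**
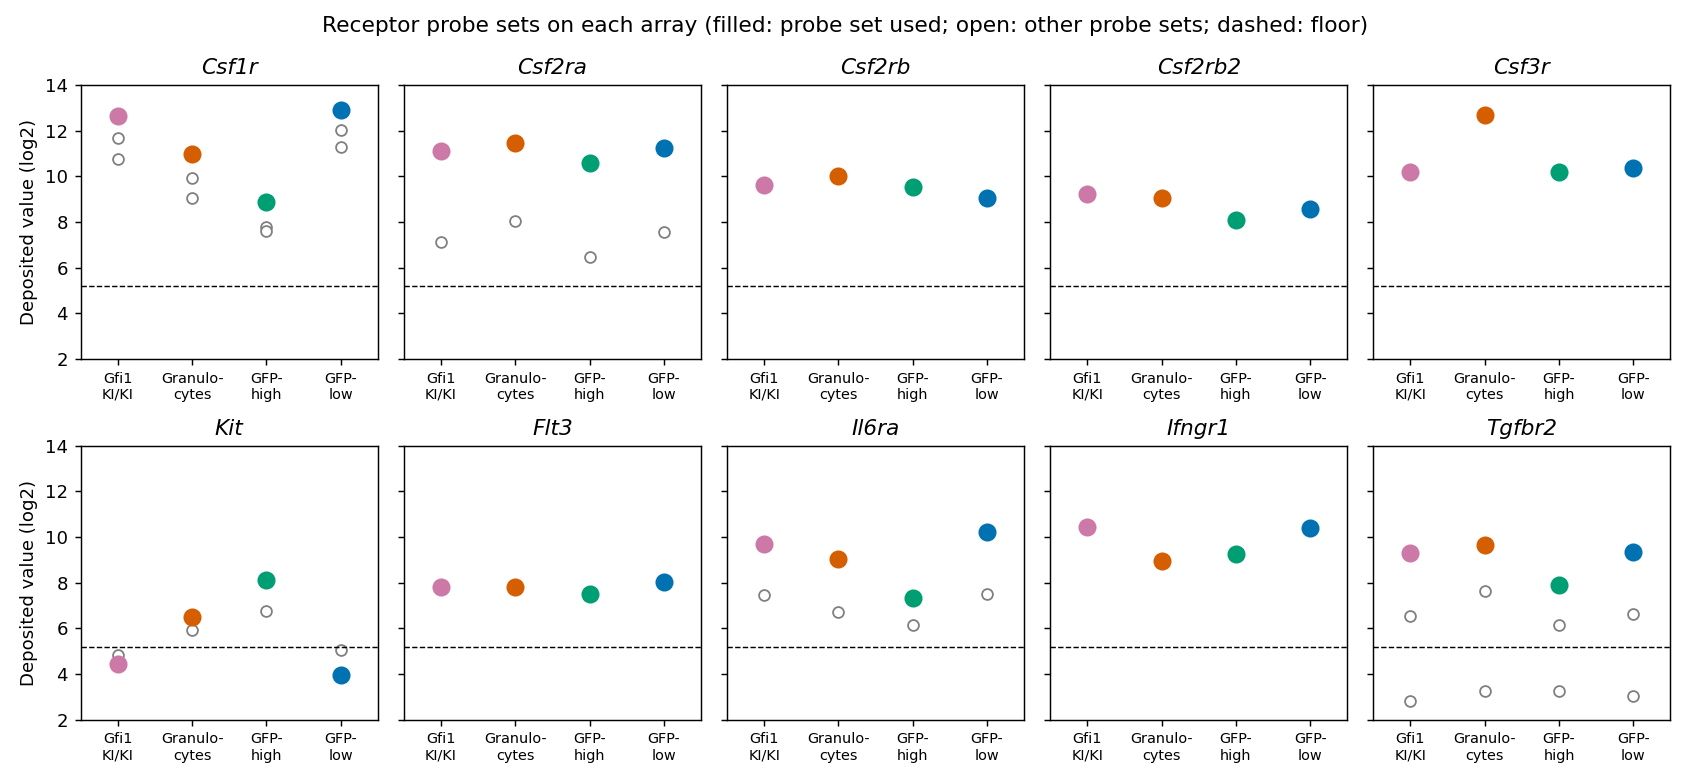
Deposited log2 value (vertical axis) of each receptor probe set on the 4 arrays (horizontal axis), with the probe set of highest mean filled, other probe sets of the gene open, and the floor of 5.18 dashed. Csf1r spans 8.86 to 12.90 and Kit passes the floor only in granulocytes and GFP-high cells, while Flt3 spans 0.53 and the brighter Csf2ra probe set 0.86.

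GFP-high cells had the lowest level of 6 of the 10 members and the highest of 1, Kit. Granulocytes had the highest of 4 members (Csf2ra, Csf2rb, Csf3r and Tgfbr2) and the lowest of 1, Ifngr1. With 1 array for each population these orders have no replicate check.

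GFP-high and GFP-low cells share genotype and Gr1 gate, and were compared for differences between cells of high and low reporter activity. In GFP-high cells 4 receptors were at least 2-fold lower, Csf1r 16.4-fold, Il6ra 7.44-fold, Tgfbr2 2.73-fold and Ifngr1 2.20-fold, and Kit was at least 7.66-fold higher. Being 2-fold apart was the rule of size, and 18.6% of the 8232 genes measured in this comparison met it, against these 5 of 10 members (9.61% of all genes were lower and 9.03% higher). Csf1r had the 44th lowest difference of all genes measured and Il6ra the 130th. The members' median log2 difference was -0.59 and that of all genes 0.03. Csf2ra (-0.65), Flt3 (-0.53), Csf2rb2 (-0.48), Csf3r (-0.17) and Csf2rb (0.49) lay under the 2-fold rule. How far probe sets of the same gene disagree, an SD of 0.28 over 2775 genes, is the error these data give, and Csf3r alone lay within it. It does not cover the spread between animals.

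Probe sets of a receptor differed in size but had the same sign in this comparison. Those of Csf1r ran from -4.21 to -3.68, those of Kit were at least 1.60 and at least 2.94, and those of Il6ra were -2.89 and -1.34. The brighter Tgfbr2 probe set gave -1.45 and the dimmer -0.47. Csf2ra gave -0.65 with its brighter and -1.11 with its dimmer probe set, so that it passed the 2-fold rule by the dimmer one. Markers of monocytes and of granulocyte-monocyte progenitors moved with these receptors, as their sums above show, and their part in the differences was not tested.

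Granulocytes and GFP-low cells differ in Gr1 and share genotype. No GFP gate is named for granulocytes, so Gr1 and the GFP gate differ together and cannot be told apart. In granulocytes Csf3r was 5.09-fold and Kit at least 2.52-fold higher, while Csf1r was 3.75-fold, Ifngr1 2.72-fold and Il6ra 2.30-fold lower. These 5 of 10 members stand beside 28.2% of 8503 genes (18.2% lower and 10.0% higher). Csf2rb, at 0.97, lay just under the 2-fold rule, and Csf2rb2 (0.45), Tgfbr2 (0.31), Csf2ra (0.21) and Flt3 (-0.20) lower still. The members' median was 0.26 and that of all genes 0.00. Probe sets of a gene differed with an SD of 0.37, and the probe sets of highest mean put Tgfbr2, Csf2ra and Flt3 within it. The dimmer Tgfbr2 probe set gave 1.00, at the edge of the 2-fold rule, and that of Csf2ra 0.48, so these receptors depend on the probe set read. The dimmer Il6ra probe set gave -0.77 and the dimmer Kit probe set at least 0.75, both under the 2-fold rule.

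Granulocytes and GFP-high cells share genotype and differ in Gr1 and in the stated GFP gate, which cannot be told apart. The GFP-high array also enters the first comparison. In granulocytes Csf3r was 5.71-fold, Csf1r 4.39-fold, Tgfbr2 3.38-fold and Il6ra 3.24-fold higher, and Kit was 3.04-fold lower. Of all 8457 genes 25.3% were 2-fold apart (8.93% higher and 16.4% lower), against 5 of 10 members. Csf2rb2 (0.93) and Csf2ra (0.86) were just under the rule, and Csf2rb (0.48), Flt3 (0.33) and Ifngr1 (-0.31) well under it. The median of the members was 0.89 and that of all genes 0.03. The scatter between probe sets was 0.34. The probe sets of Csf1r gave 1.46 to 2.14 and the dimmer probe set of Tgfbr2 1.47. The dimmer probe sets of Il6ra (0.56) and Kit (-0.86) were under the 2-fold rule, so both calls rest on 1 of 2 probe sets, while that of Csf2ra (1.59) passed it.

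KI/KI cells were compared with GFP-low cells for what goes with the loss of Gfi1 among Gr1-low cells. In this comparison 0 of 9 measured receptors were 2-fold apart, and 1.91% of 8010 genes were (0.637% higher and 1.27% lower), so a count of 0 is near that share. The largest differences were Csf2rb2 at 0.62 (1.54-fold higher), Csf2rb at 0.56 (1.48-fold higher) and Il6ra at -0.54 (1.45-fold lower). All 3 exceeded the scatter between probe sets of 0.17, although the other Il6ra probe set gave -0.04. The probe set annotated to both beta chains gave 0.25. Csf2rb2 ranked 194th highest and Csf2rb 252nd highest among all genes. Csf1r (-0.28), Flt3 (-0.22), Csf3r (-0.17), Csf2ra (-0.14), Tgfbr2 (-0.06) and Ifngr1 (0.03) differed less by the probe sets of highest mean. Of these, Csf2ra, Tgfbr2 and Ifngr1 lay within the scatter, Csf3r at its edge, and Csf1r and Flt3 above it. The other Csf1r probe sets gave -0.33 and -0.51, and the dimmer Csf2ra probe set -0.44. Kit was below the floor in both, so no fold is given. Several marker lists also differed between these arrays. Granulocyte-monocyte progenitor markers summed to 11811 linear units in KI/KI cells and 2018 in GFP-low cells, and eosinophil markers to 1923 and 276. Neutrophil markers summed to 19036 in KI/KI cells and 48495 in GFP-low cells, and dendritic cell markers (5 on the array) to 910 and 3403. The dendritic sum was mostly H2-Aa (9.22 in KI/KI and 11.20 in GFP-low cells) and H2-Ab1 (7.96 and 9.89). Ciita and Zbtb46 of that list were below the floor on both arrays, and Itgax in KI/KI cells. The part of these marker lists in the beta chain and Il6ra levels was not tested. Genotype, sex-linked transcripts and the absence of a stated GFP gate differ together here and cannot be told apart.

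Set against GFP-high cells, KI/KI cells had Csf1r 13.5-fold, Il6ra 5.13-fold, Tgfbr2 2.63-fold, Ifngr1 2.24-fold and Csf2rb2 2.15-fold higher, and Kit at least 7.66-fold lower. These 6 of 10 members stand beside 17.3% of 8195 genes (9.53% higher and 7.81% lower). Csf2ra (0.51), Flt3 (0.31), Csf2rb (0.08) and Csf3r (-0.0035) were under the rule. The members' median was 0.81 and that of all genes -0.02. Probe sets of a gene scattered with an SD of 0.28. The dimmer Tgfbr2 probe set gave 0.38, under the rule, and the probe set annotated to both beta chains 0.19, against the 1.10 of the Csf2rb2 probe set. Monocyte markers summed to 41752 linear units in KI/KI cells and 1521 in GFP-high cells. Neutrophil markers summed to 19036 and 103320, and granulocyte-monocyte progenitor markers to 11811 and 45029. The part of these marker lists in the receptor differences was not tested. Genotype, sex-linked transcripts and the GFP gate differ together here too and cannot be told apart. This comparison shares its KI/KI array with the preceding one and its GFP-high array with the first, so the differences are not independent of each other.

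**Figure D3:**
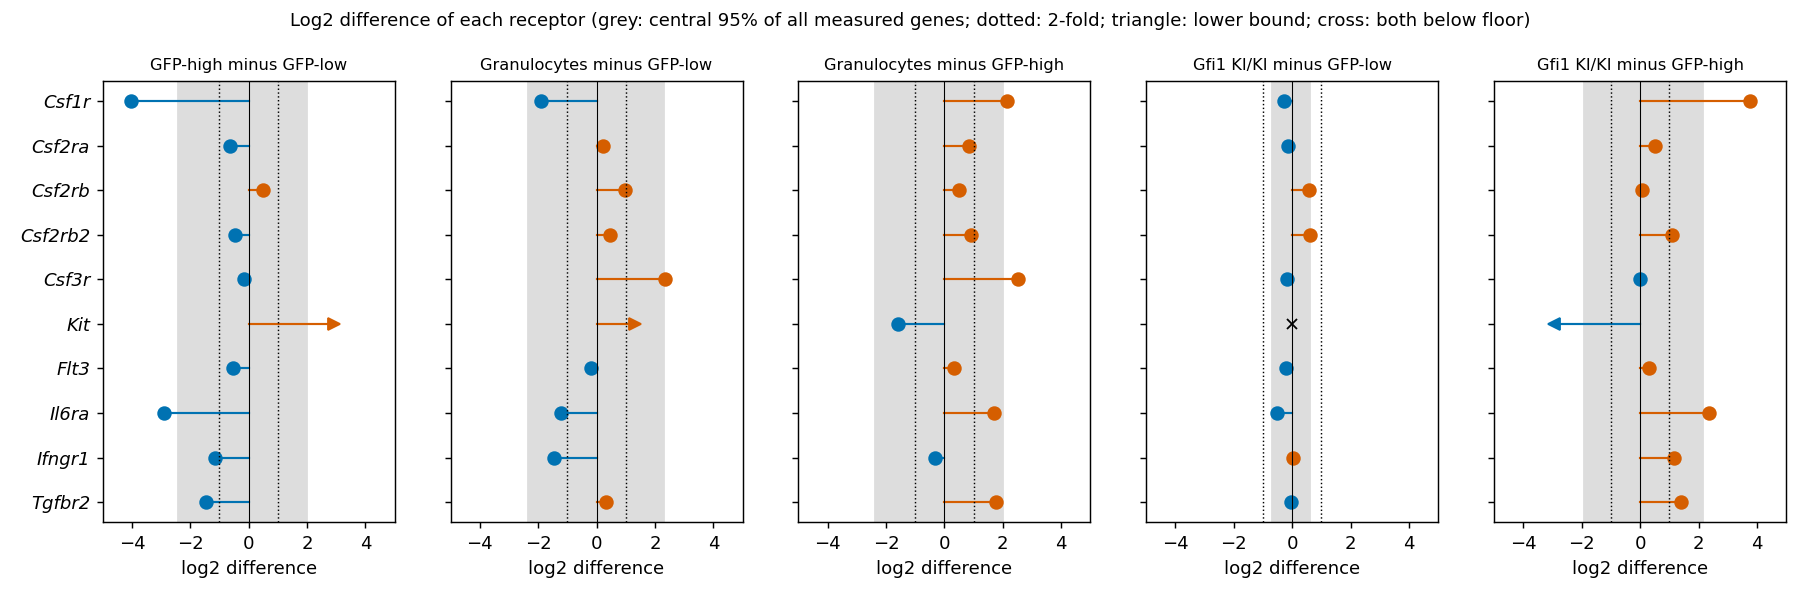
Log2 difference (horizontal axis) of each receptor (vertical axis) in the 5 comparisons, with the central 95% of all measured genes in grey, 2-fold dotted, bounds as triangles and a cross where both arrays were below the floor. Csf1r lies at -4.04 and Kit at 2.94 or more in GFP-high minus GFP-low cells, and no receptor passes 2-fold in KI/KI minus GFP-low cells.

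The ligands of these receptors were mostly below the floor. Of 12 ligand genes on the array, 2 were above the floor on any array, Csf1, which encodes M-CSF, and Tgfb1, named after their values were seen. Csf1 read 6.86 in KI/KI cells, 7.46 in granulocytes, 7.04 in GFP-high cells and 7.01 in GFP-low cells by its brightest probe set, 0.46 higher in granulocytes than in GFP-low cells. Its other 2 probe sets above the floor differed by 1.15 and 1.82 in that comparison, and by 1.11 and 1.32 in granulocytes minus GFP-high cells. Tgfb1 read 10.48 in KI/KI cells, 9.15 in granulocytes, 10.12 in GFP-high cells and 10.97 in GFP-low cells, 3.52-fold lower in granulocytes than in GFP-low cells. The ligands Csf2, Csf3, Il3, Il6, Ifng and Kitl were among those below the floor on every array.

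Partner chains of the interleukin-6 and interferon gamma receptors were, like Il6ra and Ifngr1, at least 2-fold lower in GFP-high than in GFP-low cells. Il6st, the gp130 signalling chain that pairs with Il6ra, read 9.43 in KI/KI cells, was below the floor in granulocytes (4.72) and GFP-high cells (4.47), and read 9.11 in GFP-low cells. It was at least 15.2-fold lower both in granulocytes and in GFP-high cells than in GFP-low cells, and its 3 probe sets were each below the floor in granulocytes and GFP-high cells. Ifngr2, the second chain for interferon gamma, read 8.78 in KI/KI cells, 9.16 in granulocytes, 7.20 in GFP-high cells and 9.14 in GFP-low cells. Like Ifngr1 it was lower in GFP-high than in GFP-low cells, by 3.83-fold, but unlike Ifngr1 it was level in granulocytes (0.02, log2). Its dimmer probe set differed by less, with 6.29 in GFP-high and 6.75 in GFP-low cells. Acvrl1, a type I receptor of the transforming growth factor beta family best known from endothelium, read 6.82 in KI/KI cells, 9.89 in granulocytes, 6.76 in GFP-high cells and 6.97 in GFP-low cells. Il3ra, the alpha chain for interleukin-3, was 2.49-fold lower in granulocytes than in GFP-low cells. In GFP-high minus GFP-low cells 2 of 6 measured partner chains were 2-fold lower and 0 higher, beside 9.61% and 9.03% of all genes, and in KI/KI minus GFP-low cells 0 of 6 were 2-fold apart, beside 1.91%.

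Of 23 kinases, adaptors and signal transducers in the list, 20 were measured. In GFP-high minus GFP-low cells 2 of 20 were 2-fold lower, the Janus kinase gene Tyk2 (2.88-fold) and Pik3cd, a catalytic subunit of phosphoinositide 3-kinase (2.10-fold), and 0 were higher. That share of those lower is near the 9.61% of all genes. Tyk2 read 9.40 in KI/KI cells, 7.94 in granulocytes, 7.71 in GFP-high cells and 9.23 in GFP-low cells. In granulocytes minus GFP-low cells 2 were higher, Jak1 (2.06-fold) and Smad3 (at least 2.10-fold), and 1 was lower, Tyk2 (2.45-fold), beside 10.0% and 18.2% of all genes. The other Smad3 probe set gave at least 0.75 (log2), under the 2-fold rule. In granulocytes minus GFP-high cells 3 were higher, Stat5b (2.48-fold), Pik3cg (2.22-fold) and Jak1 (2.12-fold), and 0 lower, beside 8.93% and 16.4% of all genes. In KI/KI minus GFP-high cells Tyk2 alone was 2-fold apart, 3.23-fold higher, and in KI/KI minus GFP-low cells 0 of 20 were, beside 17.3% and 1.91% of all genes.

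Inhibitors of receptor signalling went both ways. Socs3, which restrains signalling from Csf3r and gp130, read 8.68 in KI/KI cells, 9.35 in granulocytes, 5.79 in GFP-high cells and 7.58 in GFP-low cells. Its lowest level was in GFP-high cells for each of its 3 probe sets, and in KI/KI cells it was 2.15-fold higher than in GFP-low cells. Spred2, an inhibitor of the Ras-MAP kinase path below Kit, read 6.53 in KI/KI cells, 8.32 in granulocytes, 8.32 in GFP-high cells and 6.23 in GFP-low cells. Its dimmer probe set was nearly level, from 6.06 to 6.30. Dusp6, a phosphatase of MAP kinase, was 3.23-fold lower and Spry2, a further inhibitor of that path, at least 3.87-fold higher in GFP-high than in GFP-low cells. The other Spry2 probe set was below the floor on every array. In GFP-high minus GFP-low cells 4 of 18 inhibitors were 2-fold lower and 2 higher, beside 9.61% and 9.03% of all genes. Granulocytes minus GFP-low cells had 4 higher and 1 lower, beside 10.0% and 18.2% of all genes. Among the higher were Spred2 (4.25-fold), Socs3 (3.41-fold) and Smad7, the inhibitory Smad below Tgfbr2 (2.44-fold). In KI/KI minus GFP-low cells 1 of 17 was higher, Socs3, and 1 lower, Skil, a repressor of Smad signalling, by 2.19-fold, beside 0.637% and 1.27% of all genes.

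Among 10 transcription factors known to act on such receptor genes, Spi1 was nearly level in Gr1-low cells, at 10.85 in KI/KI cells, 10.99 in GFP-high cells and 10.85 in GFP-low cells, and read 11.62 in granulocytes, as named after its values were seen. Irf8, a factor of monocyte development, was 13.1-fold, Cebpa 3.33-fold and Cebpb 2.69-fold lower in GFP-high than in GFP-low cells. Myb, a factor of immature cells, was 9.52-fold higher there and Gfi1 at least 35.1-fold. These 5 of 10 stand beside the 18.6% of all genes. Gfi1 is among the 5, but these cells were sorted on its reporter, so its call was set by the sort and is not a finding. In KI/KI minus GFP-low cells 0 of 9 were 2-fold apart, beside 1.91% of all genes.

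**Figure D4:**
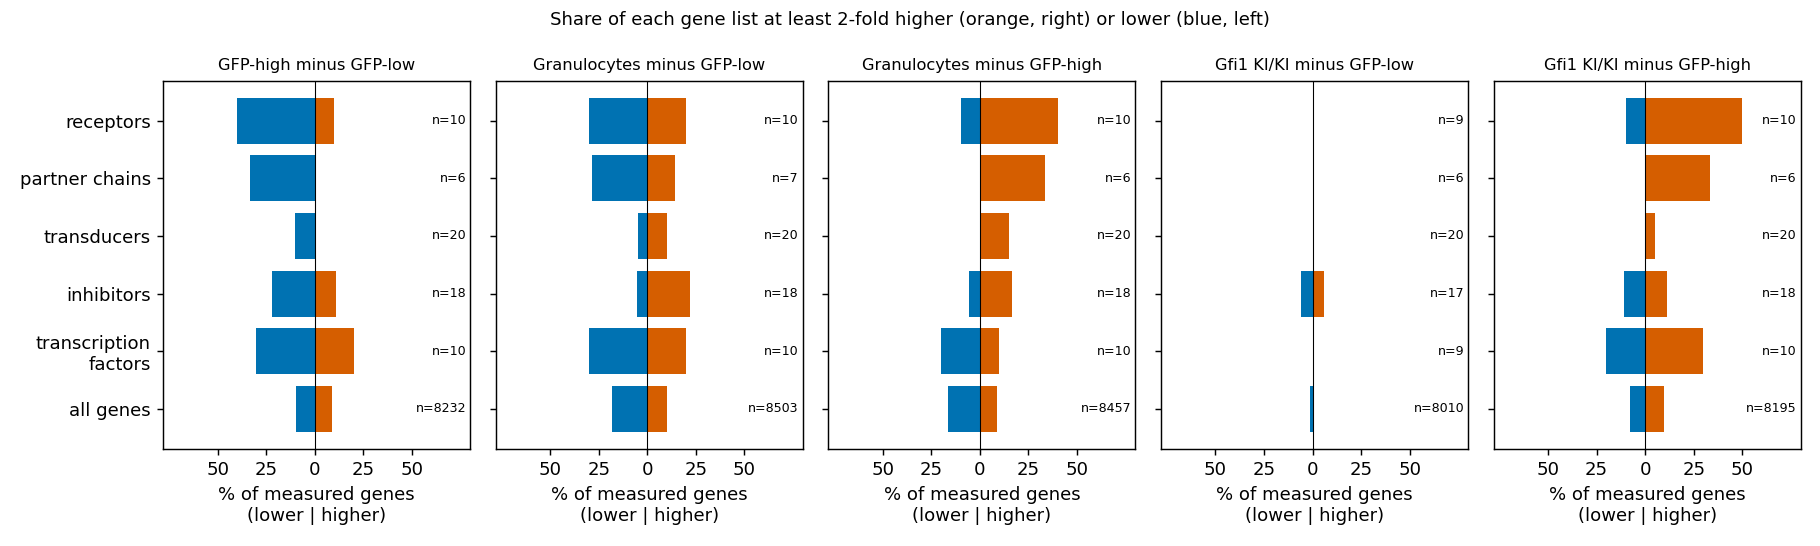
Share of the measured genes of each list (vertical axis) that were at least 2-fold higher (orange, to the right) or lower (blue, to the left), in percent, in the 5 comparisons, with the number measured beside each bar. In GFP-high minus GFP-low cells 4 of 10 receptors were lower and 1 higher, against 9.61% and 9.03% of all genes, and in KI/KI minus GFP-low cells the receptor bar is empty.

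For the members whose levels spanned a log2 range of 2 or more, the 3 genes with the most similar profile were found, by the smallest largest difference between mean-centred log2 values over the 4 arrays. Nearest to Csf1r was Cd68, a lysosomal glycoprotein of macrophages (largest difference 0.21), followed by Krt80 (0.28) and Pmaip1, a pro-apoptotic gene (0.31). Nearest to Il6ra were Zbp1, a sensor of nucleic acids (0.17), the interferon-inducible Ifi204 (0.21) and Ppp1r15a, of the stress response (0.25). Nearest to Kit were Rcn1 (0.09), the lectin-like receptor gene Olr1 (0.15) and Myb (0.19). Nearest to Csf3r were the mitochondrial carrier gene Slc25a33 (0.10), Krt86 (0.18) and Ggt5 (0.20), of which Slc25a33 and Krt86 were below the floor outside granulocytes and Ggt5 in KI/KI and GFP-low cells. The floor also sets part of the other likenesses. Kit and Rcn1 were both below it in KI/KI and GFP-low cells, so that their match there is fixed by the floor, and Pmaip1 (4.71) and Ifi204 (3.46) were below it in GFP-high cells. Olr1 and Myb were above it in KI/KI and GFP-low cells, where Kit was not read, so their likeness to Kit also depends on where the floor was set. With 4 arrays many genes can share a profile, and the likeness is a description of these arrays.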

How the data were processed

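Per the labels' protocols, TRIzol was used to isolate RNA of 4 sorted populations, and biotin-labelled cRNA was prepared from 6 µg for Affymetrix arrays. The authors deposited a table of 22690 probe sets by 4 arrays, with values taken as log2 from their range of 2.70 to 14.50. The sources used here give no background correction, summarisation, normalization or log base, and values were used without further scaling. A common scale would hide a change shared by most genes.

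Probe sets with 1 gene in the platform annotation (20393, control probe sets among them) were named, with symbols checked through gene identifiers against GRCm38.p6. Of several probe sets of a gene, the one with the highest mean was read. Values below the 40th percentile (5.18) were set to it. With 1 array in each group no test was possible, and no p-value, SE or SD between animals is given. The number of arrays limits the precision. Calls are by size, at 2-fold (a log2 difference of 1) in either direction. The scatter is the SD of the difference between 2 probe sets' log2 differences, over the square root of 2, for genes above the floor on both arrays.

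All members were named. Of the other lists, up to 4 genes for each comparison were to be named, those at least 2-fold apart, largest first. For transcription factors in GFP-high minus GFP-low cells all that were 2-fold apart were named, which exceeds that limit. Members, lists and motifs were chosen with earlier results of these data known. Protein sequences were not used here. The calculation was tested on simulated data. Python 3.11.15, pandas 2.3.3 and numpy 2.4.6 were used. Alternatives were floors at the 20th and 60th percentile, quantile normalization, the mean of all probe sets and the probe set of largest range.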

Additional observations from a re-analysis of the deposited data

How the results depend on the processing

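With 1 array in each group no result has a test, so each alternative gives a value only, for the number of receptors at least 2-fold higher, the number lower and the median difference in 5 comparisons. Of these 15 results, all stayed close to their value (counts within 1.5 times, medians within the scatter between probe sets) under the floor at the 20th percentile and under quantile normalization. With the floor at the 60th percentile, 1 receptor in place of 2 passed the 2-fold rule on the higher side in granulocytes minus GFP-low cells, because Kit was then below the floor on both arrays. With the probe set of largest range, the median of granulocytes minus GFP-high cells was 1.26 in place of 0.89. With the mean of all probe sets, the median of KI/KI minus GFP-high cells was 0.52 in place of 0.81, and 3 calls were lost. They were Tgfbr2 in that comparison (0.44 in place of 1.39) and in GFP-high minus GFP-low cells (-0.57 in place of -1.45), and Il6ra in granulocytes minus GFP-low cells (-0.99 in place of -1.20). A call of Csf2ra in granulocytes minus GFP-high cells was gained (1.22). The mean takes in every probe set of a gene, for Tgfbr2 also a probe set below the floor on every array. In the comparisons named, the dimmer probe sets gave -0.77 for Il6ra and 1.59 for Csf2ra. The bound for Kit in GFP-high minus GFP-low cells moved with the floor, being 4.11 at the 20th and 1.31 at the 60th percentile. Under these alternatives 0 called receptor differences changed sign. No paired analysis was possible because each group has 1 array. Signal near the floor limits Kit, which has no level in KI/KI or GFP-low cells.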
